A study of Mus musculus with 69 samples.

Results

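Igfbp4, Ikzf3, Arhgap27os3, Ftsj3, Phb, Kat2a and Nme1 lie on mouse chromosome 11 within 10 Mb of Stat5a and Stat5b, the pair of genes deleted in the mice of this study. They are 7 of the 24309 genes that the RNA-seq count tables share, and 7 of 443 genes in that window, of which 222 had enough reads to be tested in at least 1 comparison of genotypes. The 7 genes were chosen by measured values of these same libraries, namely repeated differences between STAT5-deficient and WT cells, so every genotype difference given here is a description, printed without its p-value. T cells were sorted from pooled lymph nodes and spleens of adult mice. Their age in weeks is not in the labels, whereas the study's methods give a range. WT mice are Stat5a+/+ Stat5b+/+, AAB mice are Stat5a-/- Stat5b+/- and BBA mice are Stat5a+/- Stat5b-/-. Per the study's methods, the compound genotypes came from crosses of mice lacking the whole locus on 1 chromosome with mice lacking a single paralog, so the deletions are present in every cell of the body. The 7 genes therefore sit on the same chromosome as the deleted alleles, and the dose of Stat5 and the linked stretch of chromosome 11 cannot be told apart in any comparison of genotypes.

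The 48 CD8+ libraries comprised 2 libraries of each genotype in 8 conditions. Naive (Tnv) and central memory (Tcm) cells received no cytokine, IL-7 or IL-15, and effector memory (Tem) cells no cytokine or IL-15. The 15 naive CD4+ libraries were without cytokine or with IL-7, with 2 or 3 libraries in each group. Cytokine was given for 12 to 16 h according to the labels, and the study's methods give a longer upper limit. Cells that received no cytokine were cultured according to the labels but went straight from the sort to RNA according to the methods. By the latter account cytokine and overnight culture cannot be told apart in any comparison of cells with and without cytokine. A further 4 libraries, labelled as in vitro activated CD8+ T cells of AAB mice, carried a retrovirus with CA-STAT5A, a constitutively active form of STAT5A, or a control retrovirus, 2 libraries each. Per the study's methods, transduced cells were then cultured with IL-2. Replicates are separate samples of a group, and the labels do not tie them to separate mice. For RNA-seq the study's reporting summary names 2 or 3 mice per group, run in 2 or 3 trials. The p-values measure only the spread between these samples. In bulk libraries, fewer cells of a type and less RNA per cell cannot be told apart.

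IL-7 and IL-15 signal through receptors that share the common gamma chain and lead to phosphorylation of STAT5A and STAT5B, which pair up, enter the nucleus and bind DNA. In T cells this pathway is known for sustaining survival, growth and memory, and for switching on its own inhibitors such as Cish and Socs2. Deleted alleles carry a stretch of flanking chromosome with them through crosses, and genes near the deletion are inherited together with it.

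Total counts on genes ran from 5926139 to 25612758 in the CD8+ libraries, from 6705004 to 34118295 in the CD4+ libraries and from 11020682 to 16516110 in the retrovirus libraries. Levels are in CPM, counts scaled to the size of the library with factors from the median of gene ratios, separately in the 3 sets of libraries. Stat5a stood at 0.959 to 4.92 CPM in the 16 AAB CD8+ libraries, against 32.4 to 107 CPM in WT and 34.7 to 49.4 CPM in BBA. Stat5b stood at 163 to 354 CPM in WT CD8+ libraries, 78.0 to 140 CPM in AAB and 48.7 to 93.2 CPM in BBA, so reads of Stat5b remained in cells labelled as lacking both of its alleles. Replicate 2 of WT Tnv cells given IL-15 stood apart, with 237 CPM of Cd4 and 699 CPM of Cd8a, while Cd4 reached at most 11.9 CPM in the other CD8+ libraries.

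The 4 retrovirus libraries went against their label. Cd8a was at 1.41 to 3.16 CPM in them and at 699 to 2010 CPM in the CD8+ libraries. The summed level of the T cell markers Cd3e and Cd3d, 2 of 3 on the list, was 8.95 to 108 CPM, against 599.6 to 1118 CPM in CD8+ libraries. All 4 NK cell markers on a list (Ncr1, Klrb1c, Klra8 and Klre1) summed to 1805 to 2176 CPM, against at most 12.99 CPM in any CD8+ library and 8.80 CPM in any CD4+ library. The myeloid list summed to 471.5 and 620 CPM with the control virus and to 1176 and 1333 CPM with CA-STAT5A. They are called the libraries labelled as transduced CD8+ cells below, and the part of this difference in their values was not tested.

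**Figure D1:**
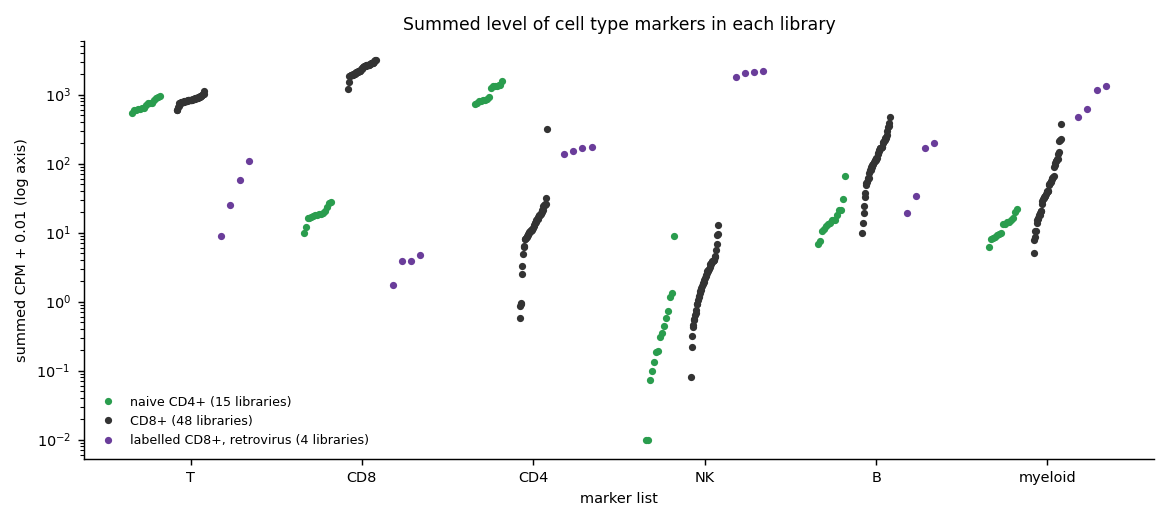
Summed level of the marker lists for T cells, the CD8 lineage, the CD4 lineage, NK cells, B cells and myeloid cells in each library (y axis, summed CPM plus 0.01, log axis), with 1 point per library, in order of the level within each set. The 4 retrovirus libraries lie below the CD8+ libraries for the T and CD8 lists and above every other library for the NK list, and 1 CD8+ library stands apart for the CD4 list.

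On the reference assembly GRCm38, Kat2a lies nearest to the deleted genes, 68.0 kb from their span (chr11:100704746-100712465, minus strand). Igfbp4 (chr11:99041244-99054392, plus strand) and Ikzf3 (chr11:98464902-98546031, minus strand) lie 1.73 and 2.23 Mb away on the same side. Arhgap27os3 (chr11:103344753-103350124, plus strand) lies 2.46 Mb away on the other side, inside Arhgap27, which is on the opposite strand. Phb (chr11:95666957-95680773, plus strand), Ftsj3 (chr11:106249142-106256079, minus strand) and Nme1 (chr11:93956979-93968521, minus strand) lie 5.10, 5.36 and 6.81 Mb away. All 7 genes passed the filter on low counts in all 21 fits. Per kilobase of merged exons, the WT level over the 8 CD8+ conditions had a median of 50.7 CPM for Phb, 42.4 for Igfbp4, 34.2 for Kat2a, 31.9 for Ftsj3, 29.0 for Ikzf3, 24.9 for Nme1 and 14.5 for Arhgap27os3, beside 39.0 for Stat5b and 10.7 for Stat5a. Igfbp4 had by far the widest range over these WT conditions, from 11.4 to 182 CPM per kilobase, while the range of Kat2a was 26.8 to 44.3.

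**Figure D2:**
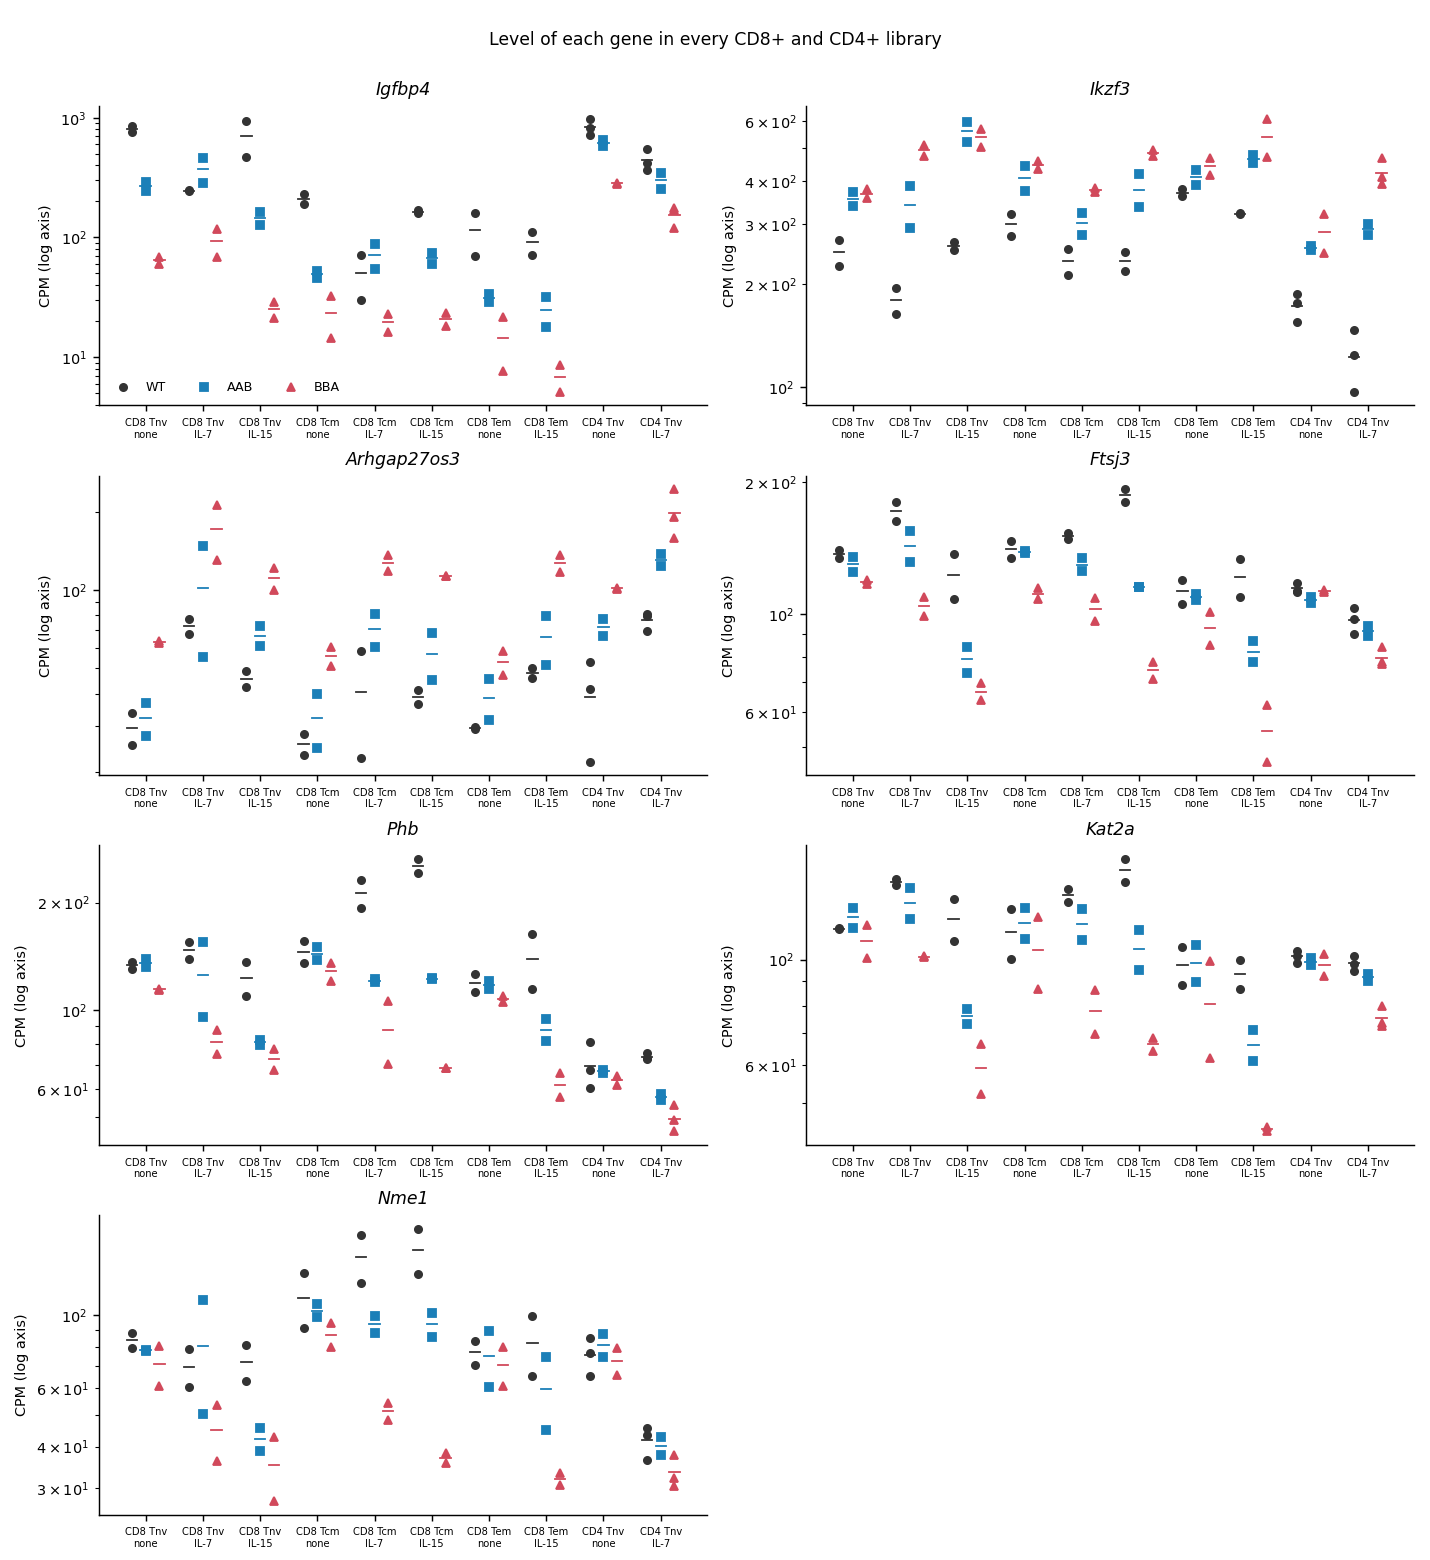
Level of the 7 genes in each of the 63 CD8+ and CD4+ libraries (y axis, CPM, log axis) by cell state and cytokine, with 1 point per library and a bar at the group mean. Igfbp4 is lowest in BBA in all 10 conditions, Ikzf3 and Arhgap27os3 lie above WT in BBA throughout, and the other 4 genes lie farther below WT in BBA with cytokine than without it in each cell state.

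Igfbp4, which encodes a secreted protein that binds insulin-like growth factors, had the largest log2 fold changes of the members in BBA without cytokine and with IL-15. For cells given IL-7 this was not always so, and Ikzf3 reached 1.79 in CD4+ cells. In Tnv cells without cytokine the WT libraries held 845 and 764 CPM, the AAB libraries 291 and 246 CPM and the BBA libraries 60.5 and 69.1 CPM. The 3 genotypes did not overlap, and BBA stood at 8.05% and AAB at 33.3% of the WT mean. Of all genes in that condition, 25.6% lay wholly below WT in BBA and 18.5% in AAB. The log2 fold change over WT was -3.63 ± 0.12 (SE) in BBA and -1.60 ± 0.11 in AAB. In Tcm cells without cytokine the libraries held 191 and 229 CPM in WT, 52.5 and 46.1 CPM in AAB, and 14.4 and 32.2 CPM in BBA, again in the order WT, AAB, BBA. In Tem cells the level was lower in every genotype, at 70.1 and 160 CPM in WT, 33.5 and 29.1 CPM in AAB and 7.63 and 21.5 CPM in BBA. The spread between the 2 WT libraries of Tem cells was wide, and with a log2 fold change of -2.96 ± 0.54 the BBA difference was not called there.

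With IL-15 Igfbp4 was again lowest in BBA in all 3 CD8+ cell states. Tnv cells held 473 and 943 CPM in WT, 128 and 164 CPM in AAB and 21.4 and 28.7 CPM in BBA, a log2 fold change of -4.77 ± 0.38 in BBA and -2.27 ± 0.33 in AAB. The upper WT value belonged to the library with Cd4 reads, and without that library the estimates were -4.21 in BBA and -1.69 in AAB. In Tem cells with IL-15, BBA held 5.14 and 8.55 CPM, which was 7.50% of WT.

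With IL-7 the picture of Igfbp4 differed between CD8+ and CD4+ cells. In Tnv CD8+ cells the WT level was 247 and 242 CPM, so that it fell below both AAB libraries, at 459 and 285 CPM, and remained above both BBA libraries, at 117 and 68.6 CPM. The log2 fold change over WT was 0.61 ± 0.30 in AAB and -1.40 ± 0.31 in BBA, and neither passed the threshold for a call. In Tcm cells with IL-7 the WT libraries, at 70.9 and 30.0 CPM, overlapped with AAB, at 54.3 and 87.9 CPM, and lay above BBA, at 16.3 and 23.1 CPM. Myeloid markers summed to 370 and 215 CPM in those WT libraries, against 48.2 and 61.0 CPM in AAB, 145 and 224 CPM in BBA and 51.0 and 64.9 CPM in WT Tcm cells without cytokine, and their part in the values of this condition was not tested. Naive CD4+ cells kept the order WT, AAB, BBA with IL-7, at group means of 443 ± 93.1 (SD, n = 3), 301 ± 64.2 (SD, n = 2) and 155 ± 30.8 (SD, n = 3) CPM. Without cytokine the CD4+ libraries held 969, 822 and 712 CPM in WT, 575 and 646 CPM in AAB, and 287 and 280 CPM in BBA. The BBA difference without cytokine was thus smaller in CD4+ cells, at a log2 fold change of -1.55 ± 0.15, than in CD8+ Tnv cells, at -3.63. For cells given IL-7 it was -1.50 ± 0.19 in CD4+ cells, close to -1.40 ± 0.31 in CD8+ Tnv cells. The difference between the lineages was not tested, since the tables were scaled separately.

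The 250 bases before the RefSeq start of Igfbp4 (GRCm38.p6, chr11:99040994-99041243, plus strand) are shown because this gene differed most. They were searched on both strands for TTCNNNGAA, the letters of the STAT binding motif, and for CACGTG, the E-box letters bound by MYC among others, and hold neither. The letters of both motifs read the same on either strand, and no match overlaps with another.
Igfbp4: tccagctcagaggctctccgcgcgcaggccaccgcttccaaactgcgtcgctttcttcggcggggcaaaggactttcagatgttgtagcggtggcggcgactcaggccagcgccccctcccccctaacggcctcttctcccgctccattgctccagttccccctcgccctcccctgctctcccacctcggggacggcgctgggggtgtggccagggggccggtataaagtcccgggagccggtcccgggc

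Ikzf3 encodes Aiolos, a zinc finger transcription factor of the Ikaros family that is found in lymphocytes, and it was higher in both deficient genotypes in every condition. In Tnv cells without cytokine it stood at 227 and 269 CPM in WT, 339 and 371 CPM in AAB and 357 and 380 CPM in BBA. Neither deficient genotype overlapped with WT, while AAB and BBA overlapped with each other. With IL-7 the libraries of Tnv cells held 164 and 195 CPM in WT, 292 and 388 CPM in AAB and 473 and 511 CPM in BBA, which brought BBA to 274% of WT. The highest ratio was found in naive CD4+ cells with IL-7, where the WT libraries held 97.1, 125 and 147 CPM, the AAB libraries 278 and 301 CPM and the BBA libraries 412, 392 and 467 CPM. Over the 4 conditions without cytokine the log2 fold change of Ikzf3 in BBA ran from 0.29 to 0.73, and over the 6 with cytokine from 0.75 to 1.79. The respective ranges in AAB were 0.18 to 0.57 and 0.42 to 1.24. All libraries of AAB and BBA lay above all WT libraries in 10 of 10 conditions, which was the case for 21.2% of all pairs of gene and condition in BBA and 17.1% in AAB. A list of memory and effector markers (Cd44, Ccl5, Eomes, Ly6c2 and Cxcr3) was also higher in BBA than in WT in every naive condition. With IL-7 its summed level was 6.70 to 8.96 CPM in WT, 12.5 and 12.8 CPM in AAB and 30.0 to 65.5 CPM in BBA in CD4+ cells. In CD8+ Tnv cells with IL-7 it was 46.9 and 84.9 CPM in WT, 111 and 303 CPM in AAB and 216 and 389 CPM in BBA. Without cytokine, CD8+ Tnv cells held 232 and 228 CPM in WT, 365 and 325.5 CPM in AAB and 299 and 277 CPM in BBA. CD4+ cells without cytokine held 25.4 to 54.4 CPM in WT, 37.3 and 42.7 CPM in AAB and 73.6 and 101 CPM in BBA. Tnv cells with IL-15 held 86.65 and 124 CPM in WT, 131 and 161 CPM in AAB and 159.5 and 195 CPM in BBA. B cell markers summed to 6.93 to 11.3 CPM in WT, 13.3 and 14.9 CPM in AAB and 15, 30.7 and 65.5 CPM in BBA in the CD4+ cells given IL-7, and the part of either list in the values of Ikzf3 was not tested.

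Arhgap27os3 is an RNA transcribed opposite to Arhgap27. Whether strand was used in counting is not given in the sources used here, so reads of the pair cannot be told apart. Tnv cells without cytokine held 33.7 and 25.5 CPM in WT, 27.5 and 36.9 CPM in AAB and 63.5 and 62.8 CPM in BBA, so that AAB overlapped with WT and BBA lay above both. With IL-15, Tcm cells held 41.2 and 36.4 CPM in WT, 45.3 and 68.3 CPM in AAB and 113 and 113 CPM in BBA, a log2 fold change of 1.60 ± 0.18 in BBA. BBA lay above WT without overlap in 10 of 10 conditions, beside 21.2% of all pairs of gene and condition. Its log2 fold changes were 0.87 to 1.41 without cytokine and 1.23 to 1.70 with cytokine. AAB lay above WT without overlap in 7 conditions, beside 17.1% of all pairs of gene and condition, and its log2 fold changes of 0.12 to 0.91 never passed the threshold. Arhgap27 itself ran from 106 to 195 CPM in WT, 121 to 172 CPM in AAB and 83.7 to 151 CPM in BBA over the CD8+ libraries.

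Ftsj3, Phb, Kat2a and Nme1 showed a different pattern, with BBA closer to WT in the absence of cytokine and farther below it with cytokine in each cell state. Without cytokine, BBA still lay wholly below WT for Ftsj3 in all 3 CD8+ cell states and for Phb in 2 of them. The share of all genes that did so was 21.2% to 25.6% in these cell states. Ftsj3 encodes a nucleolar methyltransferase of ribosomal RNA processing, Phb a scaffold protein of the inner mitochondrial membrane, Kat2a the histone acetyltransferase GCN5 of the SAGA complex, and Nme1 a nucleoside diphosphate kinase. Values of Nme1 are uncertain to the extent that its reads fit the near-identical neighbour Nme2. In Tcm cells without cytokine Phb stood at 156 and 135 CPM in WT, 138 and 150 CPM in AAB and 121 and 136 CPM in BBA, and WT overlapped with both deficient genotypes. With IL-15 the same cells held 265 and 241 CPM in WT, 122 and 123 CPM in AAB and 68.7 and 68.8 CPM in BBA. The genotypes then separated in the order WT, AAB, BBA, at 48.3% of WT in AAB and 27.2% in BBA, with log2 fold changes of -1.01 ± 0.08 and -1.81 ± 0.09.

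Nme1 in Tcm cells with IL-15 stood at 182 and 133 CPM in WT, 102 and 85.6 CPM in AAB and 38.3 and 35.7 CPM in BBA, a log2 fold change of -2.02 ± 0.17 in BBA. Without cytokine the same cells held 134 and 91.5 CPM, 107 and 98.2 CPM, and 94.4 and 79.7 CPM in these genotypes, and WT overlapped with the other two. Ftsj3 in Tcm cells with IL-15 held 193 and 181 CPM in WT, 115 and 116 CPM in AAB and 78.0 and 71.1 CPM in BBA. Kat2a held 145 and 163 CPM in WT, 95.1 and 115 CPM in AAB and 64.2 and 68.5 CPM in BBA. All 4 genes were thus ordered WT, AAB, BBA there without overlap. Of all genes in that condition, 39.6% lay wholly below WT in BBA and 32.2% in AAB. Over all 4 genes the log2 fold changes in BBA ran from -0.34 to -0.01 in the 4 conditions without cytokine and from -2.02 to -0.27 in the 6 conditions with it.

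Lower levels in BBA were also found in the other cell states with IL-15. In Tnv CD8+ cells with IL-15 the libraries of Kat2a held 134 and 109 CPM in WT, 73.1 and 78.8 CPM in AAB and 52.1 and 66.3 CPM in BBA. In Tem cells with IL-15 it was at 99.6 and 86.7 CPM in WT, 61.3 and 71.1 CPM in AAB and 44.5 and 43.5 CPM in BBA. Both deficient genotypes lay wholly below WT in each, beside 20.1% to 29.5% of all genes by cell state and genotype. In naive CD4+ cells with IL-7 the differences were small, with Kat2a at 76.7%, Nme1 at 79.9%, Ftsj3 at 82.1% and Phb at 67.0% of WT in BBA, and none of the 4 genes was called there.

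The windows of Phb and Nme1 are shown because, in Tcm cells, the BBA difference of these genes changed most between no cytokine and IL-15, and because both hold letters that were searched for, printed in capitals. Each comprises the 250 bases before a RefSeq start on GRCm38.p6, chr11:95666707-95666956 on the plus strand for Phb and chr11:93968273-93968522 on the minus strand for Nme1. The Phb window holds TTCCCAGAA, a match to TTCNNNGAA, at 57 to 49 bases before the start and CACGTG at 232 to 227 bases. The Nme1 window holds CACGTG at 18 to 13 bases before the start. A second RefSeq start of Nme1 has CACGTG at 29 to 24 bases before it. The windows of Arhgap27os3, Ftsj3 and Kat2a hold neither motif, and 6 of the 7 genes had an entry. Among 32851 promoter windows of this length, 7.02% hold TTCNNNGAA, 6.02% hold CACGTG and 0.374% hold both.
Phb: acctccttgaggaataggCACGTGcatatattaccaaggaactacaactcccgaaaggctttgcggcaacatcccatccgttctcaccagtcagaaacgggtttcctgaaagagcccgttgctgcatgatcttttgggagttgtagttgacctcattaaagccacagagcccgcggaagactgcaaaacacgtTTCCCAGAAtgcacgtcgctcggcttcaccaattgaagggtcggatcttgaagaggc
Nme1: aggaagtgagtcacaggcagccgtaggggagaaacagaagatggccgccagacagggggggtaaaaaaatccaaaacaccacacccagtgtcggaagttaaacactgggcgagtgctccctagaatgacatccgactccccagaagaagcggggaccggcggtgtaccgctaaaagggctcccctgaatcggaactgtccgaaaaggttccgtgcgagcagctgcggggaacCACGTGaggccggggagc

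**Figure D3:**
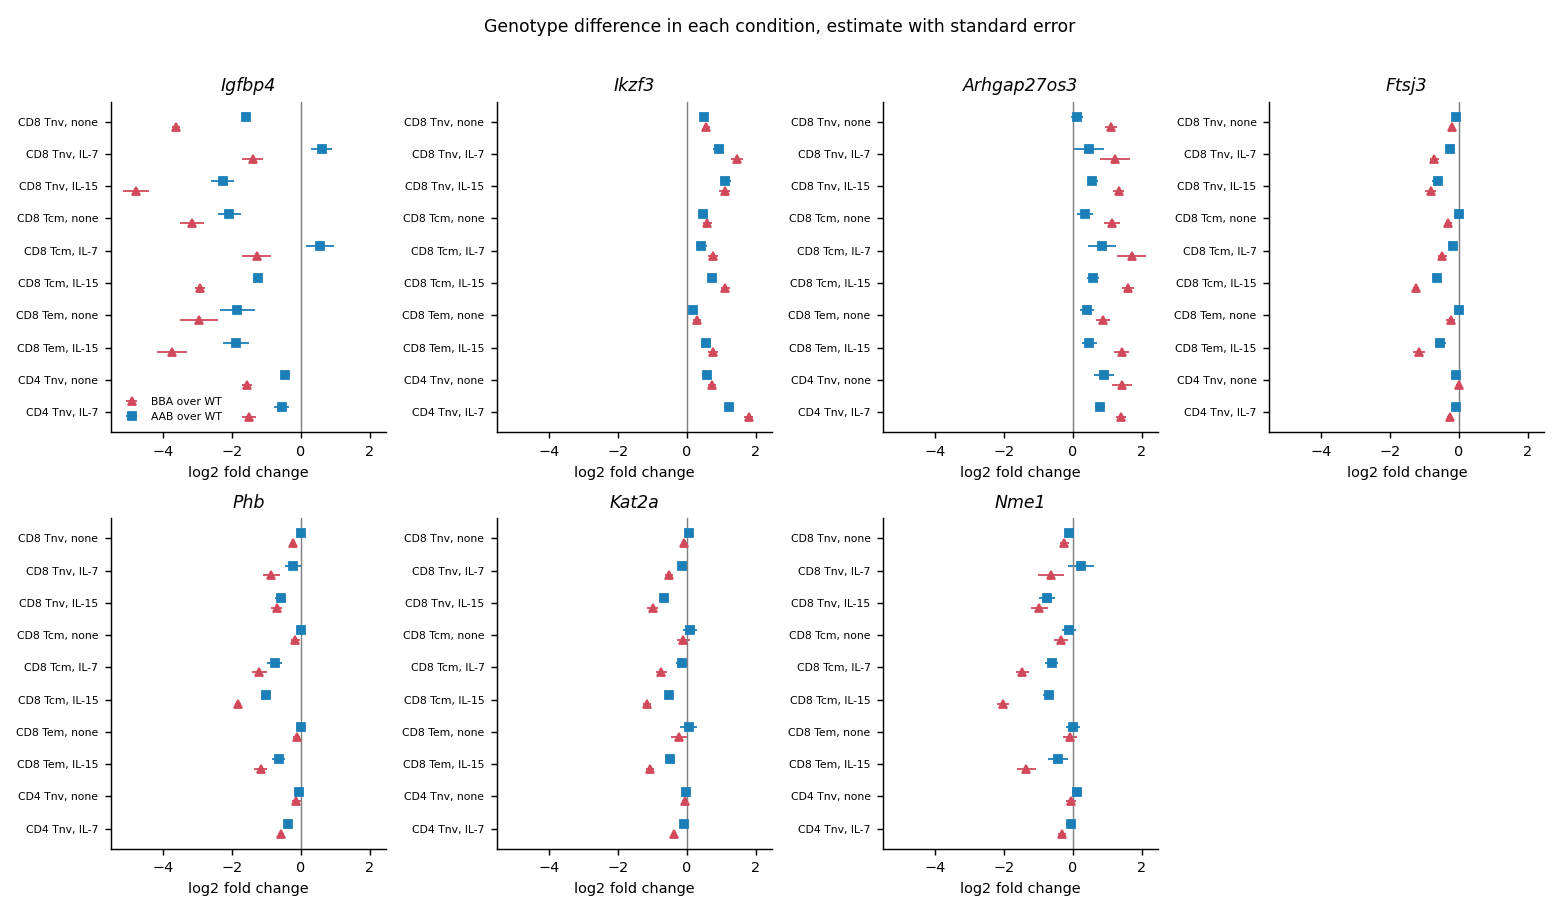
Log2 fold change over WT (x axis) of each gene in each of 10 conditions, for BBA (triangles) and AAB (squares), with bars of 1 standard error from edgeR. Igfbp4, Ikzf3 and Arhgap27os3 are away from 0 in BBA with and without cytokine, whereas Ftsj3, Phb, Kat2a and Nme1 lie farther below 0 in BBA with cytokine than without it.

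Calls required a difference over 1.5-fold together with an adjusted p under 0.05 (Benjamini-Hochberg over all genes tested in that condition) by edgeR's quasi-likelihood test. Since this contrast chose the genes, the share of all genes called is printed beside each count and nothing is read from setting them side by side. In BBA without cytokine, 1 of the 7 genes was higher and 1 lower in Tnv (2.78% of all genes were called), 1 was lower in Tcm (0.287%), 0 were called in Tem (0.207%), and 1 was higher and 1 lower in CD4+ cells (1.13%). In Tem cells 3 of the 7 had an unadjusted p under 0.05 (10.8% of all genes) and DESeq2 called 2 (2.75%). The Tnv call of Arhgap27os3 was lost without replicate 2 of WT or either BBA library, at log2 fold changes of 0.90 to 1.11. The Tcm call of Igfbp4 was lost without either WT library. The CD4+ call of Ikzf3 was lost without replicate 1 or 2 of WT or replicate 2 of BBA, at 0.53 to 0.75. With IL-15, 2 were higher and 5 lower in Tnv (9.43% of all genes), 2 higher and 5 lower in Tcm (23.7%), and 1 higher and 4 lower in Tem (1.79%). The calls in Tem with IL-15 did not hold whichever single library of that fit was left out, while the log2 fold change of Igfbp4 stayed at -4.13 to -3.36. In Tnv with IL-15, Phb lost its call without replicate 1 of WT or any AAB or BBA library, at -0.82 to -0.54. Nme1 lost it without replicate 1 of WT, either AAB library or replicate 2 of BBA, at -0.98 to -0.66. Ftsj3 lost it without replicate 1 of WT or either BBA library, at -0.91 to -0.65. Kat2a lost it without replicate 1 of BBA, at -0.84. With IL-7, 1 was higher and 1 lower in Tnv (2.69%), 2 were lower in Tcm (3.09%), and 2 were higher and 1 lower in CD4+ cells (5.55%). Both calls in Tnv with IL-7 were lost whichever WT or BBA library was left out. The log2 fold changes were then 1.32 to 1.57 for Ikzf3 and -0.81 to -0.63 for Ftsj3. In Tcm with IL-7 Phb lost its call without any AAB or BBA library, at -1.53 to -0.95. Nme1 lost its call there without either BBA library, at -1.56 and -1.39. In Tcm with IL-7 both WT libraries were male while AAB and BBA each held 1 male and 1 female library, and a term for sex ended both calls, of Phb (log2 fold change -1.38 with the term) and Nme1 (-1.48).

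Fewer of the 7 genes were called in AAB. Igfbp4 alone was called, as lower, in Tnv without cytokine (0.166% of all genes were called). With IL-15, Igfbp4 was lower and Ikzf3 higher in Tnv (0.893%), and Igfbp4, Ftsj3, Phb and Nme1 were lower and Ikzf3 higher in Tcm (4.27%). Ikzf3 was also higher in CD4+ cells with IL-7 (0.627%). Several of these calls were lost when a single library was left out. In Tnv with IL-15 both were lost without either AAB library, at -2.10 and -2.46 for Igfbp4 and 1.22 and 1.02 for Ikzf3. In Tcm with IL-15 Ftsj3, Nme1 and Ikzf3 lost theirs without replicate 1 of WT, at -0.60, -0.46 and 0.65. The same held without replicate 2 of AAB, at -0.66, -0.60 and 0.56. The call in CD4+ cells was lost without replicate 3 of AAB, at 1.19. In the other 6 conditions none was called, where the share of all genes was 0.257% in Tnv with IL-7, 0.0411% in Tcm without cytokine, 0.0598% in Tcm with IL-7, 0.0197% in Tem without cytokine, 0.019% in Tem with IL-15 and 0.373% in CD4+ cells without cytokine. There, between 1 and 5 of the 7 genes had an unadjusted p under 0.05 in each condition, beside 3.83% to 11.3% of all genes, and DESeq2 called between 0 and 2, beside 0.678% to 2.49%. Between the deficient genotypes, 7 of 70 pairs of gene and condition were called, beside 0.849% over all genes, and 6 of these 7 were in Tcm with IL-15. B cell markers summed to 114 and 213 CPM in WT, 89.0 and 236 CPM in AAB and 235 and 475 CPM in BBA in Tcm cells with IL-15, and to 24.4 and 105 CPM in WT, 54.9 and 99.9 CPM in AAB and 167 and 295 CPM in BBA in Tcm cells with IL-7. In Tcm cells without cytokine they summed to 216 and 355 CPM in WT, 143 and 333 CPM in AAB and 259 and 382 CPM in BBA, and their part in these differences was not tested. BBA lay farther from WT than AAB with the same sign in 10 of 10 conditions for Arhgap27os3, 9 for Ikzf3, 8 for Igfbp4, Ftsj3 and Nme1, and 7 for Phb and Kat2a. The genes were chosen for differences from WT, which were called mostly in BBA, and this favours that order. Its share over all genes was not counted, and nothing is read from it.

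By the plain overlap of libraries, Igfbp4 was lower in BBA than every WT library in 10 of 10 conditions, Ftsj3 in 9, Phb in 8, Kat2a in 6 and Nme1 in 5. Over all genes and conditions BBA lay wholly above WT in 21.2% of pairs and wholly below it in 25.9%. In AAB, Igfbp4 lay wholly below WT in 8 conditions and wholly above it in 1, Ftsj3 wholly below it in 6, Kat2a below it in 6 and above it in 1, Phb below it in 5 and Nme1 in 4, where the shares over all genes were 17.1% above and 21% below. Counted over conditions, Igfbp4 was called in BBA in 7 of 10, Ikzf3 and Arhgap27os3 in 5, Ftsj3 and Phb in 4, and Kat2a and Nme1 in 3. Of 8764 genes tested in all 10 conditions, 4.12% were called in 1 direction in at least 3 in BBA and 0.137% in AAB, the latter including Igfbp4 and Ikzf3. Called in 2 conditions in BBA were 13 further genes of the window, among them Nme2, Atp5g1, Utp18, Slc25a39 and Prkca as lower and Pecam1, Jup, Ghdc and Arl5c as higher. The share of all genes called in 2 conditions was not counted, and nothing is read from this number.

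Whether the difference follows the cytokine was described by the mean log2 fold change over the 3 CD8+ conditions without cytokine and the 5 with it, from 1 fit of 48 libraries. Igfbp4 in BBA stood at -3.27 ± 0.27 (SE) without cytokine and at -2.86 ± 0.21 with it. Arhgap27os3 stood at 1.01 ± 0.21 and 1.42 ± 0.16, and Ikzf3 at 0.46 ± 0.08 and 1.0 ± 0.06. Igfbp4 and Arhgap27os3 thus differed already without cytokine, as did Ikzf3 by a smaller amount. Ftsj3 moved from -0.28 ± 0.07 without to -0.92 ± 0.06 with cytokine, Phb from -0.19 ± 0.10 to -1.18 ± 0.08, Kat2a from -0.17 ± 0.10 to -0.93 ± 0.08 and Nme1 from -0.25 ± 0.17 to -1.33 ± 0.14. The change with cytokine was -0.99 ± 0.13 for Phb, -1.07 ± 0.22 for Nme1, -0.76 ± 0.13 for Kat2a and -0.64 ± 0.09 for Ftsj3, against 0.54 ± 0.10 for Ikzf3, 0.41 ± 0.33 for Igfbp4 and 0.42 ± 0.26 for Arhgap27os3. Tem cells received IL-15 only, so cell states were not matched between the means. Libraries with IL-7 were all or partly male, and those without cytokine female. The 0.41 of Igfbp4 is a mean over unlike changes. In Tnv cells its BBA difference was -3.63 without cytokine and -4.77 with IL-15, and it changed by 2.25 with IL-7. Ikzf3 thus differed without cytokine and differed more with it. The median of all 11419 genes was between -0.01 and 0.01 in each of these contrasts.

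In AAB these values were closer to 0. Igfbp4 stood at -1.85 ± 0.26 without cytokine and at -0.87 ± 0.20 with it, the latter a mean over conditions with IL-15, where it was below WT, and with IL-7, where it was above. Ikzf3 stood at 0.37 ± 0.08 and 0.72 ± 0.06, and Arhgap27os3 at 0.27 ± 0.21 and 0.56 ± 0.16, so that Arhgap27os3 in AAB was near its standard error without cytokine. Without cytokine Ftsj3, Phb, Kat2a and Nme1 lay within -0.09 to 0.05, no more than their standard errors of 0.07 to 0.17, and with cytokine Phb reached -0.67 ± 0.08, Nme1 -0.49 ± 0.13, Ftsj3 -0.48 ± 0.06 and Kat2a -0.42 ± 0.08.

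Condition by condition, the genotype difference with cytokine minus that without passed the limits of a call in BBA for 1 gene in Tnv with IL-7 (Igfbp4, beside 2.43% of all genes), 1 in Tnv with IL-15 (Kat2a, 2.42%), 4 in Tcm with IL-15 (Ftsj3, Phb, Kat2a and Nme1, 7.79%) and 1 in CD4+ cells with IL-7 (Ikzf3, 1.11%). It did so for 0 genes in Tcm with IL-7 (0.108%) and in Tem with IL-15 (0.00922%), where 4 and 5 of the 7 had an unadjusted p under 0.05 (11.1% and 7.36% of all genes) and DESeq2 called 2 in each (2.2% and 0.996%). In AAB 2 of 42 pairs of gene and comparison did so, beside 0.127% over all genes. All CD8+ Tnv and all WT Tcm libraries with IL-7 came from male mice and those without cytokine from female mice, by Xist and Y-linked reads, so IL-7 and sex cannot be told apart in those CD8+ comparisons. The CD4+ libraries were all male, and Tcm libraries with IL-15 and without cytokine were all female.

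The response of WT cells to cytokine did not choose the genes, although it shares WT libraries with the contrasts that did, and was tested by edgeR's quasi-likelihood test. It compares cells cultured with cytokine with cells that, by the methods, were not cultured. Arhgap27os3 rose most often. It was higher with IL-7 in Tnv CD8+ cells, from 33.7 and 25.5 CPM to 77.7 and 67.9 CPM (log2 fold change 1.29 ± 0.16 (SE), edgeR adjusted p = 0.002), and in CD4+ cells, from 52.7, 41.6 and 21.9 CPM to 79.4, 69.3 and 80.7 CPM (1.01 ± 0.26, edgeR adjusted p = 0.0157). With IL-15 it rose in Tnv (0.65 ± 0.16, edgeR adjusted p = 0.0478) and in Tem cells (0.72 ± 0.10, edgeR adjusted p = 0.0419). No library with cytokine overlapped with those without in these 4 comparisons. The share of all genes without overlap was not counted there, and nothing is read from it. Both rises with IL-15 were close to the threshold. The one in Tnv cells was 0.54 with an edgeR adjusted p of 0.0816 without the library that held Cd4 reads, and the call was also lost without either library lacking cytokine (edgeR adjusted p = 0.0804 and 0.235) or either library with IL-7 (edgeR adjusted p = 0.0877 and 0.0886), which shared the fit. The one in Tem cells was lost without either library lacking cytokine (edgeR adjusted p = 0.15 and 0.152).

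Igfbp4 was lower in WT cells given IL-7 than in those without cytokine. The log2 fold change was -1.73 ± 0.30 in Tnv CD8+ cells (edgeR adjusted p = 0.00596) and -0.91 ± 0.16 in CD4+ cells (edgeR adjusted p = 0.00275), where all libraries were male. In Tcm cells it was -2.08 ± 0.37 and did not pass (edgeR adjusted p = 0.0939). The call in Tnv cells was lost without replicate 1 or replicate 2 with IL-7 (edgeR adjusted p = 0.0511 and 0.054) at estimates of -1.74 and -1.71. With IL-15 the values were -0.16 ± 0.29 in Tnv, -0.37 ± 0.35 in Tcm and -0.30 ± 0.41 in Tem, with edgeR adjusted p between 0.724 and 0.75. The mean level with IL-7 was 0.304 of that without cytokine in WT Tnv cells, but 1.39 in AAB and 1.43 in BBA. In CD4+ cells the ratio was 0.530 in WT, 0.492 in AAB and 0.547 in BBA, and the genotype difference with IL-7 minus that without was 0.05 ± 0.27 in BBA and -0.11 ± 0.28 in AAB.

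Ftsj3, Phb and Kat2a were not called in any WT response, and Ftsj3 was lower by less than 1.5-fold in CD4+ cells with IL-7 (-0.23 ± 0.07, edgeR adjusted p = 0.0394). The largest estimate among them was that of Phb in Tcm with IL-15, at 0.78 ± 0.18 (edgeR adjusted p = 0.22), from 156 and 135 CPM to 265 and 241 CPM. Over all genes 0 of 11608 were called by edgeR in that comparison, with 1386 at an unadjusted p under 0.05, while DESeq2 called 335. Nme1 fell in CD4+ cells with IL-7, from 65.3, 76.6 and 85.2 CPM to 43.5, 45.6 and 36.5 CPM (-0.84 ± 0.12, edgeR adjusted p = 0.000789), and was not called elsewhere. Ikzf3 was lower with IL-7 by less than 1.5-fold, at -0.48 ± 0.12 in Tnv (edgeR adjusted p = 0.0233) and -0.47 ± 0.14 in CD4+ cells (edgeR adjusted p = 0.0266). The ratio of mean Ikzf3 levels with IL-7 to those without was 0.724 in WT, 0.957 in AAB and 1.34 in BBA in Tnv cells, and 0.711, 1.13 and 1.49 in CD4+ cells. In Tcm cells it was below 1 in all 3 genotypes, at 0.779, 0.737 and 0.845.

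In all, the WT response called 1 gene as higher and 1 as lower in Tnv with IL-7 (20.2% of all genes were called), 1 as higher in Tnv with IL-15 (6.17%), 1 as higher in Tem with IL-15 (1.52%), and 1 as higher and 2 as lower in CD4+ cells with IL-7 (16.7%). None was called in Tcm with IL-7 (0.353%) or with IL-15 (0%), where 2 of the 7 had an unadjusted p under 0.05 (11.9% of all genes in each) and DESeq2 called 1 in each (3.55% and 2.89%). A list of 12 known STAT5 response genes was measured alongside. Of these, 8 of 12 tested were called as higher in Tnv with IL-7 (9.84% of all genes) and 9 of 11 in CD4+ cells with IL-7 (9.27%). Bcl2 was at 2.66 ± 0.13 and Cish at 2.07 ± 0.13 in the latter. These were the comparisons with the largest shares of all genes called, and the counts of the list in the others are not given here. The genes called in a WT response were Arhgap27os3, higher with cytokine and higher in BBA, Igfbp4, lower with IL-7 and lower in BBA, and Nme1, lower with IL-7 in CD4+ cells and lower in BBA in 3 CD8+ conditions.

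**Figure D4:**
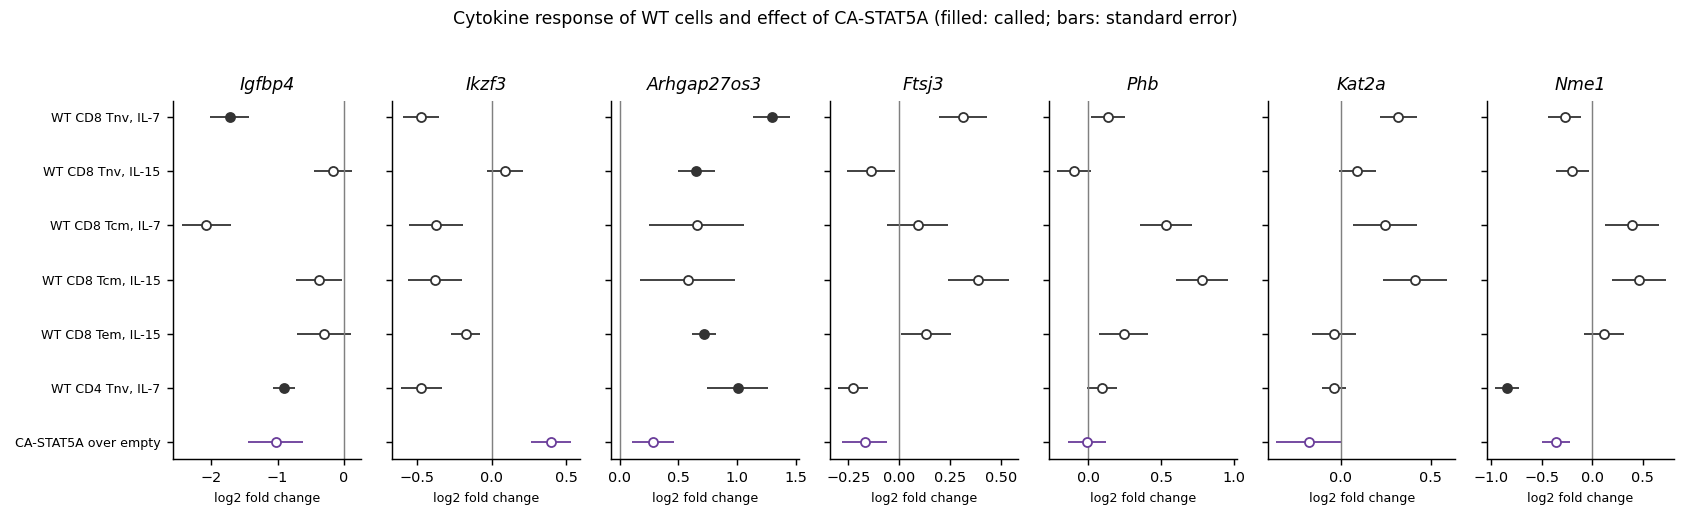
Log2 fold change (x axis) of cytokine over no cytokine in WT cells, and of CA-STAT5A over control virus in the libraries labelled as transduced CD8+ cells (bottom row), for each gene with bars of 1 standard error. Filled points passed 1.5-fold and an adjusted p under 0.05; these are 4 points of Arhgap27os3, 2 of Igfbp4 and 1 of Nme1. The x axes differ between genes.

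CA-STAT5A over control virus compares libraries of 1 genotype and is independent of the choice of genes. Stat5a stood at 60.3 and 61.0 CPM with the CA-STAT5A virus and at 8.40 and 3.17 CPM with the control virus. Stat5b stood at 149 and 132 CPM with the CA-STAT5A virus and at 61.7 and 72.5 CPM with the control virus. By the methods both arms were cultured with IL-2, which the paper names as a potent STAT5 stimulus. The control arm is then not free of STAT5 signal. None of the 7 genes was called by edgeR, beside 6.75% of all genes, with 3 of the 7 at an unadjusted p under 0.05 (20.5% of all genes), and DESeq2 called 0 (9.5%). Igfbp4 was low throughout, at 6.86 and 4.38 CPM with control virus and 2.39 and 3.24 CPM with CA-STAT5A (-1.03 ± 0.41, edgeR adjusted p = 0.219). Ikzf3 was at 620 and 655 CPM with control virus and 910 and 795 CPM with CA-STAT5A (0.40 ± 0.14, edgeR adjusted p = 0.15). Both libraries with CA-STAT5A thus lay above both without, but the share of all genes that did so was not counted. Nme1 was at 68.4 and 76.2 CPM and at 53.4 and 61.2 CPM (-0.36 ± 0.13, edgeR adjusted p = 0.194). The estimates of Arhgap27os3, Ftsj3, Phb and Kat2a were 0.29 ± 0.18, -0.17 ± 0.11, -0.01 ± 0.13 and -0.18 ± 0.18, and edgeR adjusted p ran from 0.43 to 0.986. The summed B cell markers were at 166 and 201 CPM with control virus and at 19.5 and 34.4 CPM with CA-STAT5A, and their part in these values was not tested. Replicate 1 of both arms was male and replicate 2 female.

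Of 1914 pairs of gene and condition within 10 Mb, 102 were called in BBA, or 5.33%, against 5.01% on other chromosomes. In AAB 24 pairs were called, or 1.25%, against 0.618% on other chromosomes. Without the 7 genes the shares within 10 Mb were 3.85% in BBA and 0.813% in AAB. The 7 genes were chosen for repeated differences and were left out of the window only. Shares without them are therefore no like measure of other chromosomes, and nothing is read from them. Within 1 Mb the share was 3.39% in BBA (2.67% without Kat2a) and 0.26% in AAB (0.267% without it). Beside the 7 genes, which were chosen as the recurrent ones, none in the window was called in the same direction in at least 4 conditions. C130046K22Rik, 2.81 Mb away, was called as lower in 3 conditions in AAB.

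**Figure D5:**
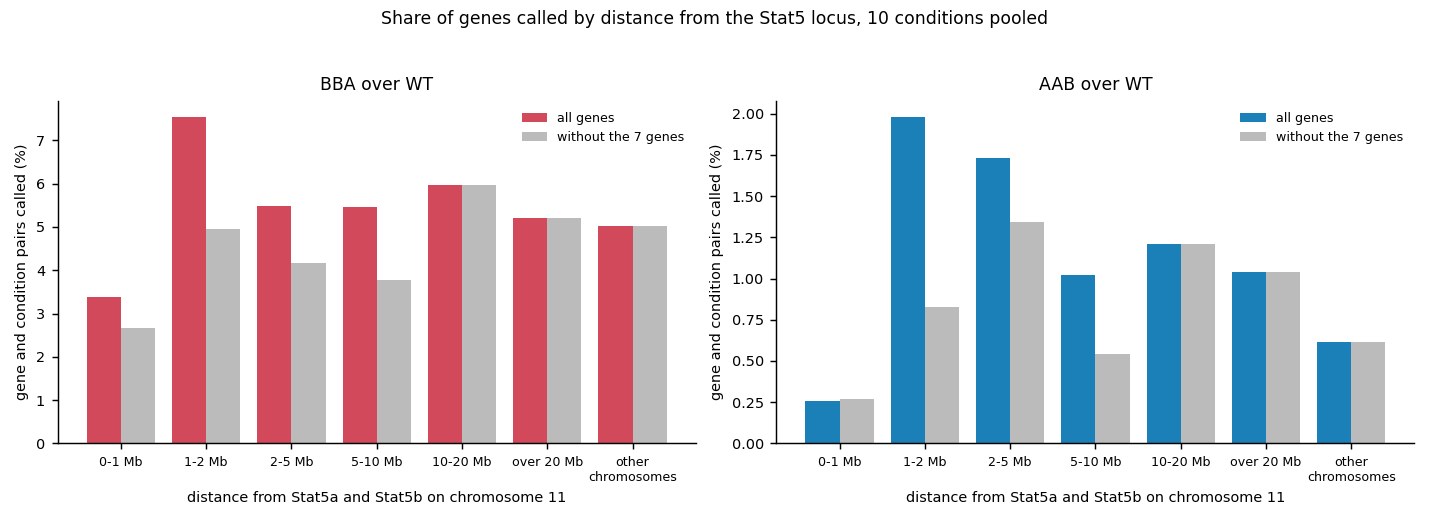
Share of pairs of gene and condition called over WT (y axis, percent, from 0) by distance from Stat5a and Stat5b on chromosome 11 and on other chromosomes (x axis), over 10 conditions, with all genes (coloured bars) and without the 7 genes (grey bars). Without the 7 genes the bins within 10 Mb lie between 2.67% and 4.96% in BBA, against 5.01% on other chromosomes, and between 0.267% and 1.34% in AAB, against 0.618%. The 7 genes, chosen for repeated differences, were left out of the window only, so the grey bars do not compare like with like.

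Over the 24 group means of CD8+ cells, the genes whose log2 level correlated best with each member, of 11490 genes, were Heatr1 (Pearson r = 0.991) and Hspa9 (0.986) for Ftsj3, Ranbp1 (0.983) and Atp5g1 (0.973) for Nme1, Ipo5 (0.977) and Fbl (0.974) for Phb, and Ftsj3 (0.972) and Nob1 (0.972) for Kat2a. For Arhgap27os3 they were Chrnb1 (0.938) and Slc35g2 (0.931), for Igfbp4 Dapl1 (0.913) and Mettl9 (0.871), and for Ikzf3 Dennd1c (0.865) and Car2 (0.852). Atp5g1, Ftsj3 and Chrnb1 among these lie on chromosome 11, which holds 1817 of the 24309 genes. Among the members, Ftsj3, Phb, Kat2a and Nme1 correlated with each other at r = 0.816 to 0.972. Ikzf3 correlated with these 4 genes at -0.846 to -0.693, Arhgap27os3 at -0.754 to -0.535 and Igfbp4 at 0.388 to 0.699, and Igfbp4 correlated with Ikzf3 at -0.631 and with Arhgap27os3 at -0.433. The points share libraries and their scaling, so these values are descriptions.

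Partners and relatives of the members, 38 genes listed with earlier results known, mostly lie elsewhere in the genome. In BBA Tcm cells with IL-15, 14 of 30 tested were called as lower and 1 as higher (11.8% and 11.9% of all genes), with a median log2 fold change of -0.61 against 0.02 over all genes. The nucleolar proteins Nop2 (-1.79 ± 0.08), Fbl (-1.56 ± 0.09), Nop58 (-1.46 ± 0.10), Nop56 (-1.44 ± 0.09) and Dkc1 (-1.16 ± 0.11) were among those lower, as were Nme2 (-1.5 ± 0.14) and Phb2 (-0.63 ± 0.11), the partner of Phb. Of the closest relatives of Ikzf3, Ikzf2 was higher (1.5 ± 0.35) and Ikzf1 was at -0.07 ± 0.09. Kat2b, the closest relative of Kat2a, was at -0.13 ± 0.09. In Tcm cells without cytokine the median of the 28 tested was -0.21 against 0.01 over all genes. The STAT5 response list had 11 of 12 called as lower in BBA Tcm cells with IL-15 (11.8% of all genes), at a median of -2.09, and 1 of 9 tested called as lower without cytokine (0.154%).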

How the data were processed

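The authors deposited whole-number counts of reads per gene, 1 table per sample or set of samples. The submitters' processing notes name TopHat2, Cufflinks, HTSeq and mm9, whereas the study's methods name mm10; which annotation was used, and whether strand was, is not given in the sources used here. Summary rows that name no gene, 67 to 68.4% of the counts in the retrovirus tables, were kept out. Of 69 libraries 67 entered groups, and 2 whose labels disagree on IL-7 did not.

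From the deposited counts, each condition with its 3 genotypes, each WT response and each comparison of differences was fitted separately with edgeR 4.0.16 (R 4.3.3): TMM, a Jaccard filter on low counts (thresholds from 1 to 200, re-implemented after the study's methods), the quasi-likelihood test and Benjamini-Hochberg adjustment over all genes tested. Fits were tested on simulated data. DESeq2 1.42.0, other filters, other scalings, a replicate block and leaving out each library were alternatives. Levels in CPM were scaled by the median of gene ratios, since scaling by TMM over all libraries of a lineage moved the median of all genes by -0.30 to 0.04 on the log2 scale (-0.06 to 0.01 with the former). All 38 pairs of replicates differed beyond counting error (chi-square divided by its degrees of freedom, 5.5 to 93.2). The members and all lists were chosen with earlier results of these data known. Genes of the window were to be named where called in 1 direction in at least 4 of 10 conditions; those called in 2 or 3 were named after their values were seen. Sequences and starts are RefSeq's on GRCm38.p6, and gene positions GENCODE's on GRCm38; no coordinate comes from the count tables.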

Additional observations from a re-analysis of the deposited data

Results flagged for a closer look

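The 9 differences between genotypes in the response to cytokine given here passed the limits of a call by a test of the difference itself (edgeR's quasi-likelihood test of the genotype difference with cytokine minus that without, log2 scale, ± SE). They come from the contrasts that chose the genes and are given as values. For Igfbp4 in Tnv cells with IL-7 the difference was 2.25 ± 0.36 in BBA and 2.22 ± 0.36 in AAB, where the libraries with IL-7 were male and those without female. For Kat2a in Tnv cells with IL-15 it was -0.89 ± 0.19 in BBA. In Tcm cells with IL-15, all of them from female mice, it was -0.96 ± 0.12 for Ftsj3, -1.67 ± 0.14 for Phb, -1.06 ± 0.25 for Kat2a and -1.69 ± 0.29 for Nme1 in BBA, and -1.02 ± 0.14 for Phb in AAB. For Ikzf3 in male CD4+ cells with IL-7 it was 1.06 ± 0.20 in BBA. For Igfbp4 in Tcm cells with IL-7 the estimates were 1.87 ± 0.61 in BBA and 2.62 ± 0.60 in AAB and were not called. Groups held 2 or 3 libraries, too few to look for single outlying libraries within a group.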

How the results depend on the processing

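Over the 7 genes and 10 conditions, 31 pairs of gene and condition were called in BBA and 9 in AAB over WT, 7 differed between AAB and BBA, 7 calls were made in the WT cytokine responses, 0 with CA-STAT5A and 9 in the cytokine dependence of the genotype difference. In the neighbourhood the counts were 102 in BBA and 24 in AAB. Under Bonferroni these were 8, 1, 1, 0, 0 and 1, and 9 and 2 in the neighbourhood. A 2-fold limit gave 4 between AAB and BBA, 3 in the WT response, and 57 and 13 in the neighbourhood, and no fold limit gave 156 there in BBA. filterByExpr gave 209 there in BBA. With no filter on low counts there were 24 in AAB, 23 between AAB and BBA, 1 with CA-STAT5A (Igfbp4, -1.0, edgeR adjusted p = 0.0492), 17 in the cytokine dependence, and 356 and 127 in the neighbourhood. DESeq2 gave 16, 20 and 19 in AAB, between AAB and BBA and in the cytokine dependence, and 166 and 77 in the neighbourhood. A single fit per lineage gave 179 and 39 there. The cause was not tested.

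The labels do not say what a shared replicate number marks. Same-numbered libraries deviated together (r over 0.1) in 56 of 61 pairs, and in every pair in 8 of 10 conditions, with r from -0.051 to 0.792, a hint of pairing from the data. In groups of 2 libraries the deviations from the group mean mirror each other, so r is the same for both pairs. Pairs between CD8+ groups are thus not independent, not every pair passed, and the counts above are without a block. With the replicate block the counts were 39 in BBA, 17 in AAB, 20 between AAB and BBA, 7 in the WT response, 0 with CA-STAT5A, 15 in the cytokine dependence, and 163 and 61 in the neighbourhood.

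Leaving out 1 library at a time gave 26 to 35 calls in BBA, 6 to 11 in AAB, 4 to 9 between AAB and BBA, 5 to 10 in the WT response, 0 to 0 with CA-STAT5A, 6 to 11 in the cytokine dependence, and 86 to 144 and 11 to 56 in the neighbourhood. Of single calls tested without 1 library, 222 held and 92 were lost. With CA-STAT5A, Phb turned from -0.01 to 0.00196 under filterByExpr, 0.0191 with no filter, 0.0208 without replicate 1 of CA-STAT5A and 0.11 without replicate 2 of the control virus, and Kat2a to 0.045 without the latter, within ranges over the 4 left-out libraries of -0.12 to 0.11 for Phb and -0.38 to 0.045 for Kat2a. The mean differences over CD8+ conditions did not move under filterByExpr, DESeq2 size factors or the replicate block, alternatives chosen after seeing the data. A sex term in Tcm cells with IL-7 ended the BBA calls of Phb (-1.38) and Nme1 (-1.48). Most groups held 2 libraries, which limits the precision of every estimate.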

Other observations

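Labels of 2 naive CD4+ libraries, 1 of AAB and 1 of BBA, disagree on whether IL-7 was given, and these libraries entered no group. The AAB library held Igfbp4 at 615 CPM, Ikzf3 at 281 CPM, Arhgap27os3 at 56.4 CPM, Ftsj3 at 103 CPM, Phb at 71.2 CPM, Kat2a at 105 CPM and Nme1 at 77.5 CPM. The BBA library held them at 289, 336, 99, 109, 68.4, 101 and 81.3 CPM, in the same order. Stat5a was at 1.91 CPM in the AAB library and 45.9 CPM in the BBA library, and Stat5b at 150 and 103 CPM.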
